A study of Arabidopsis thaliana with 18 samples.

Results

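Shoots of Arabidopsis thaliana plants that received the keto acid KMBA (2-keto-4-methylthiobutyric acid) under salt were compared, gene by gene, with shoots of plants kept on the same salt without it (WT). The comparison uses 6 of the 18 libraries of the series, 3 KMBA and 3 WT, which the study's methods describe as biological replicates. Expression was given as FPKM, which counts sequenced fragments relative to transcript length and library size, and all 15724 of 27371 genes that reached 1 FPKM in at least 3 of the 12 shoot libraries were tested. All plants were Col-0, a standard laboratory accession, were 21 days old, and had spent 16 days on medium with 100 mM NaCl after 5 days of germination. KMBA plants had 100 nM KMBA in that medium, and WT plants had neither a compound nor a bacterium. Salt was thus shared by both groups. Shoots of plants colonised by the bacterium SA187 and shoots of plants given 100 nM ACC, also on 100 mM NaCl, were fitted together with them and are set beside KMBA at the end.

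KMBA is the keto acid that corresponds to methionine, and SA187, an Enterobacter strain that lives in roots, releases it. In plants KMBA is also an intermediate of methionine salvage, the cycle that returns the sulfur of methionine left over from ethylene synthesis. Ethylene is made from S-adenosylmethionine through ACC, and it is perceived by receptors that act through the kinase CTR1, the membrane protein EIN2 and the transcription factor EIN3 on genes such as those of the ERF family. The question behind the comparison is how far the compound by itself changes transcripts of salt-grown shoots.

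The libraries carried the labelled tissue: all 35 genes listed for the photosystem core and carbon fixation and all 20 antenna genes passed the filter, against 2 of 18 root markers and 1 of 14 flower markers. KMBA libraries resembled each other more (Pearson r from 0.977 to 0.990 across genes, which are not independent replicates) than WT libraries did (0.920 to 0.963). Summed FPKM was 360308 to 588779 in KMBA and 445877 to 633792 in WT libraries, and the number of reads behind a value is unknown. The highest single gene had 18134 to 89315 FPKM in KMBA libraries (AT2G34186 in replicate 1, AT2G01021 in replicates 2 and 3). In WT libraries it was AT2G01021 each time, at 70482 to 144579 FPKM. The slope of log2 expression on log2 transcript length was 0.0201 to 0.109 in KMBA and -0.371 to 0.0203 in WT libraries (exact permutation test, 2-sided p = 0.2, with 0.1 the smallest that 3 against 3 libraries allow). WT replicates 1 (-0.116) and 3 (-0.371) stood apart in this slope from all other shoot libraries (-0.0436 to 0.109), whereas WT replicate 2 (0.0203) was next to KMBA replicate 3 (0.0201). Counts without these 2 WT libraries are given for some of the lists only. A call kept in each fit that left out 1 library still rests on WT replicate 1, WT replicate 3 or both. The part of the slope in the calls was tested only by subtracting the trend. The level of the lowest nonzero values, taken as the 5 percentile of FPKM times length, was 0.0356 to 0.0473 in KMBA and 0.115 to 0.136 in WT libraries (exact permutation p = 0.1, the smallest possible). It was 0.0362 to 0.0581 in SA187 and 0.0411 to 0.0522 in ACC libraries. All 3 WT libraries, WT replicate 2 (0.115) included, thus stood apart from the other shoot libraries in this measure, and its part in the calls was not tested. KMBA replicate 3 was sequenced in pool 3, and KMBA replicates 1 and 2 and all WT libraries were in pool 1. Of the ACC libraries 2 were in pool 3 and 1 in pool 1, and all 3 SA187 libraries were in pool 1.

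KMBA shoots differed from WT shoots mainly in transcripts that were lower. A gene was called when limma's p, adjusted over all tested genes by Benjamini-Hochberg, was under 0.05 and the fold over 2 on the log2(FPKM + 1) scale, and only called genes are said to have risen or fallen. By this rule 103 genes (0.655%) rose and 382 (2.43%) fell, while the median log2 fold change of all tested genes was 0.0016. Counts of risen or fallen list members given below are to be read beside these 2 shares. More than 4-fold changes numbered 8 among the rises and 35 among the falls. The largest fall was that of AT1G13609, annotated as a defensin-like protein (log2 fold change -3.40, SE 0.58, limma adjusted p = 0.00564). It had 0.630, 0.662 and 0.167 FPKM in KMBA shoots, against 14.8, 10.7 and 18.9 FPKM in WT shoots. The 3 KMBA values lay wholly outside the 3 WT values for 98 of the 103 rises and 354 of the 382 falls, beside 5879 (37.4%) of all tested genes. Fallen genes had short transcripts (median 1133 nt) and risen genes a median of 1575 nt, beside 1748 nt for all tested genes. When the dependence of each library on transcript length and GC content was subtracted, 139 genes rose and 223 fell, and 273 of these were among the 485 called before.

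**Figure D1:**
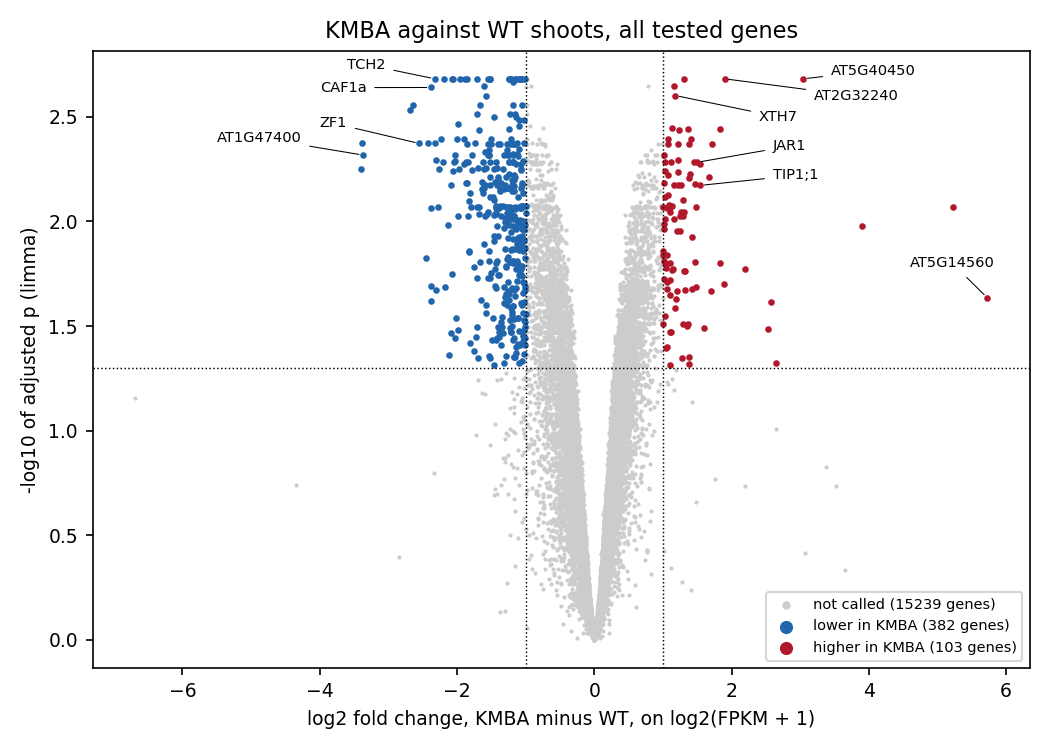
Log2 fold change of KMBA over WT shoots (x axis, on log2(FPKM + 1)) against -log10 of limma's adjusted p (y axis) for 15724 genes, with dotted lines at a fold of 2 in each direction and at an adjusted p of 0.05. The 382 genes lower in KMBA (blue) outnumber the 103 higher (red), and TCH2, CAF1a and AT5G40450 are among those with both a large fold and a small adjusted p.

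The number of called genes depended on the libraries used. WT replicate 2 was the WT library closest to the KMBA libraries for 68 of the 103 risen and 338 of the 382 fallen genes. Without WT replicate 2 the counts were 222 higher and 765 lower, without WT replicate 3 they were 70 and 209, and without KMBA replicates 2 and 3 in turn the rises numbered 67 and 59. With WT replicate 2 as the lone WT library, assumed to vary like the other groups, 18 genes rose and 42 fell. Of these 60 genes, 36 were among those called with all libraries, and the 28 falls among the 36 included TCH2, CAF1a, JAZ1, JAZ5, JAZ7, CYP94C1, ERF1A, SOBIR1 and BHLH100. In the 6 fits that each left out 1 library, 38 rises and 167 falls were called every time.

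The list with the most falls was that of rapidly induced stress regulators and touch genes, which respond within minutes to wounding, handling, cold or salt. Of 29 tested members 11 fell and none rose, their median log2 fold change was -0.84, and 28 of the 29 had a fold change below 0. TCH2, which encodes a calmodulin-like calcium sensor, had 81.1, 107 and 91.9 FPKM in KMBA shoots, against 526, 283 and 688 FPKM in WT shoots. The lowest WT value was thus above every KMBA value, and WT replicates 1 and 3 were the highest of the 6. The log2 fold change of TCH2 was -2.32 (SE 0.28, limma adjusted p = 0.00208). CAF1a, a deadenylase that shortens the poly(A) tails of mRNAs, had 26.7, 26.9 and 26.1 FPKM in KMBA shoots, against 204, 75.6 and 187 FPKM in WT shoots. KMBA libraries were nearly equal for CAF1a and WT libraries were spread widely above them (log2 fold change -2.38, SE 0.31, adjusted p = 0.00229). Other members that fell were the zinc finger genes ZF1 (log2 fold change -2.55), SZF1 (-1.63) and ZF2 (-1.07), and WRKY40 (-1.53), a transcription factor of defense and abscisic acid responses. ZF2 did not reach a fold of 2 without WT replicate 3 (-0.97).

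The number of calls in this group moved with the libraries used. Without KMBA replicate 2, KMBA replicate 3, WT replicate 1 or WT replicate 3 the number of members that fell was 6 each time, and without WT replicate 2 it was 14. CML38, another calmodulin-like gene named after its values were seen, had 10.08, 6.40 and 7.03 FPKM in KMBA shoots, against 43.1, 10.7 and 46.9 FPKM in WT shoots. WT replicate 2 lay just above KMBA replicate 1, so the separation of CML38 came from the other WT libraries (log2 fold change -1.75, SE 0.41, adjusted p = 0.0165), and its adjusted p was 0.0652 without KMBA replicate 2, 0.0537 without KMBA replicate 3, 0.0567 without WT replicate 1 and 0.0513 without WT replicate 3, while its log2 fold change stayed between -1.69 and -1.39 in these 4 fits. After subtraction of the length and GC trend 8 members fell, and with WT replicate 2 as the lone WT library 2 did. Beyond the list, MAPKKK14, a protein kinase gene chosen after its values were seen, had 13.1, 18.4 and 18.4 FPKM in KMBA shoots, against 132, 43.8 and 108 FPKM in WT shoots (log2 fold change -2.31, SE 0.37, adjusted p = 0.00506). ESE3, an ERF-family transcription factor gene induced by ethylene and salt, had 15.5, 23.58 and 21.7 FPKM in KMBA shoots, against 136, 52.5 and 191 FPKM in WT shoots (log2 fold change -2.42, SE 0.36, adjusted p = 0.00424). ERF11, a repressor of the same family, had 1.25, 1.74 and 2.01 FPKM in KMBA shoots, against 17.3, 5.53 and 18.7 FPKM in WT shoots (log2 fold change -2.33, SE 0.34, adjusted p = 0.00424). In all 3 genes WT replicate 2 was the lowest WT library and lay above every KMBA library. By the product text of the reference, which was grouped after the values were seen, 11 of 43 genes for EF-hand or calmodulin-like proteins fell and none rose (25.6%, beside 2.43% of all tested genes), and 8 fell after subtraction of the trend. With WT replicate 2 as the lone WT library, 1 of the 43 fell.

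The promoter of TCH2 is shown because TCH2 fell most among the named called genes whose promoters hold the rapid stress response element, CGCGTT. Of 84 named called genes with a promoter 3 held these letters, as did 2 of 29 stress regulators and touch genes (6.9%). In TCH2 they lie in an 8-base palindrome that contains the element on both strands. The stretch is the 250 bases before the annotated gene start in RefSeq's TAIR10.1 assembly, chr5:14999620-14999869 (minus strand), 5′ to 3′ on the strand of the gene, with the palindrome in capitals.
TCH2: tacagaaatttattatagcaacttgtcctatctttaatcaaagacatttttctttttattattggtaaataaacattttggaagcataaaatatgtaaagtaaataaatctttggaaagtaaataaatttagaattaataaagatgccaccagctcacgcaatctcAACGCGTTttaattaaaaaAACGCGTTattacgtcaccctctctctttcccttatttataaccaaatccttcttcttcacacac
The palindrome stands in 2 places. Searched on both strands, CGCGTT was present in 29 of 377 fallen genes with a promoter (7.69%), in 1 of 103 risen genes (0.971%) and in 439 of 15588 tested genes (2.82%). The W-box core TTGAC, which WRKY factors bind, was present in 51.2% of fallen, 38.8% of risen and 44.5% of all tested genes. The G-box CACGTG was present in 9.81%, 7.77% and 7.33% of the same sets, and the GCC-box GCCGCC, bound by ERF factors, in 1.86%, 0.971% and 1.92%. These are matches of letters and not measured binding. Part of the TCH2 gene (34.3% of its length) is overlapped by a gene on the opposite strand, and since the use of strand in counting is not stated, reads of such pairs cannot be told apart.

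**Figure D2:**
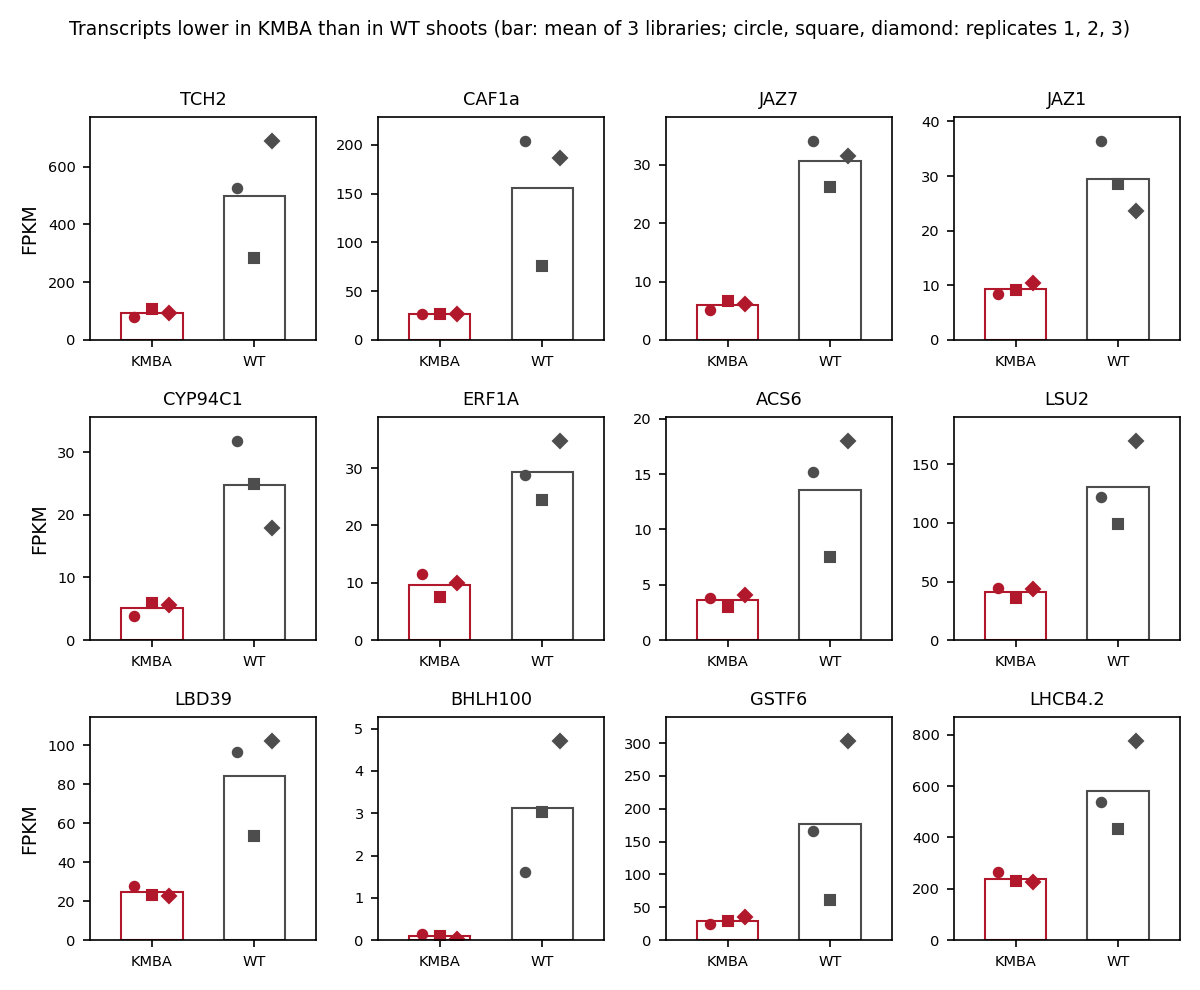
FPKM (y axis, from 0) of 12 transcripts in the 3 KMBA (red) and 3 WT (grey) shoot libraries, with bars for group means and a symbol for each replicate. In each panel all 3 KMBA values lie below all 3 WT values, and for most transcripts WT replicate 2 (square) is the WT library closest to KMBA.

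Anthocyanin and flavonol synthesis had a larger share of falls, 10 of 18 tested genes, and the lowest median of the lists described (-1.11), with none risen. These genes encode the enzymes that turn phenylalanine into red pigments and flavonols. LDOX, which forms anthocyanidins, had 17.0, 16.8 and 16.0 FPKM in KMBA shoots, against 88.3, 38.4 and 110 FPKM in WT shoots. F3H, an earlier hydroxylase of the pathway, had 7.72, 7.69 and 6.34 FPKM in KMBA shoots, against 25.5, 12.8 and 26.5 FPKM in WT shoots (log2 fold change -1.39, SE 0.27, adjusted p = 0.00861). KMBA libraries were nearly equal in both genes, and WT replicate 2 was the WT library nearest to them. F3H is overlapped over 94.5% of its length by an opposite-strand gene, so reads of this pair cannot be told apart. The malonyltransferase gene AT5MAT had 4.76, 4.95 and 4.25 FPKM in KMBA shoots, against 19.5, 13.0 and 10.6 FPKM in WT shoots (log2 fold change -1.40, SE 0.24, adjusted p = 0.00614). The list held 10 falls after subtraction of the length and GC trend, 6 to 11 in the fits without 1 library and 0 with WT replicate 2 as the lone WT library.

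Of 17 tested genes of salicylate and systemic defense 5 fell and none rose (median -1.01). WRKY70, a transcription factor of salicylate responses, had 16.0, 6.57 and 5.996 FPKM in KMBA shoots, against 18.5, 27.3 and 29.9 FPKM in WT shoots (log2 fold change -1.42, SE 0.33, adjusted p = 0.0154). KMBA replicate 1 came close to WT replicate 1, and the call was lost without KMBA replicate 2 (adjusted p = 0.0665) or KMBA replicate 3 (0.0583). The falls of this list numbered 3 after subtraction of the trend, 3 to 9 without 1 library and 0 with WT replicate 2 as the lone WT library. Among 33 tested genes of abscisic acid, salt and dehydration 5 fell and none rose (median -0.31), with 1 fall without KMBA replicate 2, 7 without WT replicate 2 and 0 with WT replicate 2 as the lone WT library.

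Jasmonate genes changed in both directions. Jasmonate is a lipid-derived wound and defense hormone whose active form, jasmonoyl-isoleucine, removes JAZ repressor proteins, and JAZ genes are themselves switched on by the hormone. Of 30 tested members 5 fell and 3 rose, with a median log2 fold change of 0.20. The repressor gene JAZ7 had 5.09, 6.58 and 6.18 FPKM in KMBA shoots, against 34.0, 26.2 and 31.5 FPKM in WT shoots (log2 fold change -2.18, SE 0.25, adjusted p = 0.00208). JAZ1 had 8.41, 9.19 and 10.4 FPKM in KMBA shoots, against 36.4, 28.5 and 23.5 FPKM in WT shoots (log2 fold change -1.54, SE 0.19, adjusted p = 0.00208). For both repressor genes the WT libraries were close to each other and well above KMBA. CYP94C1, which oxidises jasmonoyl-isoleucine and so inactivates it, had 3.77, 5.99 and 5.55 FPKM in KMBA shoots, against 31.8, 24.8 and 17.9 FPKM in WT shoots (log2 fold change -2.06, SE 0.25, adjusted p = 0.00208). JAZ5 (-1.51) and the synthesis gene AOC3 (-1.59) also fell, and all 5 falls were called in every fit that left out 1 library.

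Other jasmonate genes were higher with KMBA. JAR1, the enzyme that joins jasmonate to isoleucine, had 51.0, 38.7 and 55.8 FPKM in KMBA shoots, against 15.3, 24.7 and 11.4 FPKM in WT shoots. KMBA replicate 2 was the lowest KMBA library and WT replicate 2 the highest WT library, and the groups did not overlap (log2 fold change 1.499, SE 0.25, adjusted p = 0.00521). LOX3 and AOC1, a lipoxygenase and an allene oxide cyclase of jasmonate synthesis, were named after their values were seen. LOX3 had 53.7, 32.8 and 53.5 FPKM in KMBA shoots, against 13.5, 30.03 and 5.50 FPKM in WT shoots (log2 fold change 1.702, SE 0.43, adjusted p = 0.0214). AOC1 had 203, 167 and 225 FPKM in KMBA shoots, against 72.8, 146 and 39.6 FPKM in WT shoots (log2 fold change 1.38, SE 0.45, adjusted p = 0.0478). In both genes WT replicate 2 nearly reached KMBA replicate 2. The adjusted p of LOX3 was 0.0620 without KMBA replicate 1, 0.0669 without KMBA replicate 3 and 0.0546 without WT replicate 1. AOC1 kept its call only without WT replicate 2, and its adjusted p lay between 0.0957 and 0.160 in the fits without KMBA replicate 1, KMBA replicate 2, KMBA replicate 3, WT replicate 1 or WT replicate 3. The rises of this list numbered 1 without KMBA replicate 1, KMBA replicate 3 or WT replicate 1, and 4 without WT replicate 2.

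Of 10 tested ethylene synthesis genes 1 fell and 1 rose (median -0.36). ACS6, an ACC synthase induced by stress, had 3.78, 3.03 and 4.09 FPKM in KMBA shoots, against 15.2, 7.48 and 18.0 FPKM in WT shoots. All WT values exceeded all KMBA values, and WT replicate 2 was the closest (log2 fold change -1.58, SE 0.27, adjusted p = 0.00557). ETO1, a protein that marks ACC synthases for degradation, had 7.43, 8.93 and 8.61 FPKM in KMBA shoots, against 3.79, 4.80 and 2.35 FPKM in WT shoots (log2 fold change 1.04, SE 0.18, adjusted p = 0.00575). The fold of ETO1 fell short of 2 without KMBA replicate 2 (0.99) or WT replicate 3 (0.82), and after subtraction of the length and GC trend (0.68).

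None of the 13 tested genes of ethylene perception and signaling passed the call, although 12 of them had a fold change above 0 and their median was 0.17 (0.04 after subtraction of the length and GC trend). CTR1, the kinase that represses the pathway, had 4.99, 5.60 and 5.72 FPKM in KMBA shoots, against 2.87, 3.62 and 2.79 FPKM in WT shoots (log2 fold change 0.66, SE 0.13, adjusted p = 0.00909). EIN2, the central signal protein, had a log2 fold change of 0.66 (adjusted p = 0.0488), and EBF2, an F-box protein that targets EIN3, one of 0.37 (adjusted p = 0.0474). Their transcripts are long (2929 to 4851 nt), and after subtraction of the trend the log2 fold changes were 0.34 for CTR1 (adjusted p = 0.0344), 0.15 for EIN2 (0.284) and 0.16 for EBF2 (0.418). Among 15 tested response genes 4 fell and none rose, with a median of -0.65. ERF1A, an activator that binds the GCC-box, had 11.4, 7.50 and 9.98 FPKM in KMBA shoots, against 28.8, 24.4 and 34.7 FPKM in WT shoots. For ERF1A the WT libraries all lay far above the KMBA libraries (log2 fold change -1.51, SE 0.18, adjusted p = 0.00208). The ERF2 gene and the AP2/B3 transcription factor genes RAV2 and TEM1 had log2 fold changes of -1.23, -1.06 and -1.02. ERF2 lost its call without KMBA replicate 2 (adjusted p = 0.0653) or WT replicate 1 (0.0533). RAV2 lost it without KMBA replicate 2 (0.0695), KMBA replicate 3 (0.0602) or WT replicate 3 (log2 fold change -0.72), and TEM1 kept it only without WT replicate 2, with an adjusted p from 0.0617 to 0.0906 in the other fits. The falls in this list numbered 1 without KMBA replicate 2, 2 without KMBA replicate 3, WT replicate 1 or WT replicate 3, and 7 without WT replicate 2.

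Of 8 tested sulfur deficiency markers 2 fell and none rose, and no gene of sulfate uptake and assimilation was called. LSU2, one of a small family of genes that plants switch on when sulfur is scarce, had 44.4, 36.2 and 43.2 FPKM in KMBA shoots, against 122, 99.1 and 170 FPKM in WT shoots. The KMBA libraries were tightly grouped far below the WT libraries (log2 fold change -1.61, SE 0.27, adjusted p = 0.00559). AT1G04770, a tetratricopeptide repeat gene of the same list, had 11.5, 9.83 and 8.00 FPKM in KMBA shoots, against 29.3, 21.8 and 32.5 FPKM in WT shoots (log2 fold change -1.41, SE 0.25, adjusted p = 0.00672). An opposite-strand gene overlaps 27.3% of AT1G04770. Both were called in all 6 fits without 1 library and after subtraction of the length and GC trend, but neither was with WT replicate 2 as the lone WT library. The median of the 8 markers was -0.85, and -0.41 after subtraction of the trend. The family members LSU1 and LSU3 had log2 fold changes of -1.23 (adjusted p = 0.0777) and -1.22 (adjusted p = 0.0984), LSU4 one of -0.48 (0.293) and ATSDI1 one of -0.15 (0.766). LSU1 was at 12.05, 8.61 and 16.5 FPKM in KMBA shoots and at 29.9, 13.9 and 60.8 FPKM in WT shoots, so that WT replicate 2 lay inside the KMBA range.

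Of 27 tested genes of sulfate uptake and assimilation none was called, and their median was 0.11. By adjusted p alone 5 were higher and 1 lower in KMBA shoots. The vacuolar sulfate exporter gene SULTR4;1 had 10.3, 11.4 and 13.7 FPKM in KMBA shoots, against 5.99, 7.17 and 6.80 FPKM in WT shoots (log2 fold change 0.74, SE 0.14, adjusted p = 0.00847). OASB, the plastid enzyme that makes cysteine, had 17.8, 20.2 and 21.1 FPKM in KMBA shoots, against 11.3, 10.2 and 8.52 FPKM in WT shoots (log2 fold change 0.92, SE 0.17, adjusted p = 0.00768). APR1, a reductase that controls the flux of sulfate into cysteine, was the gene on the lower side, with 45.1, 33.7 and 34.0 FPKM in KMBA shoots, against 74.6, 64.3 and 70.4 FPKM in WT shoots (log2 fold change -0.89, SE 0.24, adjusted p = 0.0246). All 3 of these genes had no overlap between groups but a fold under 2. The sulfite reductase gene SIR had a log2 fold change of 0.50 (adjusted p = 0.0211), and the high-affinity transporter gene SULTR1;2 one of -0.58 (adjusted p = 0.156) with overlapping libraries.

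Among 24 tested genes of methionine, S-adenosylmethionine and methionine salvage 1 fell and none rose (median 0.11). The salvage gene ARD4, for an acireductone dioxygenase, the enzyme that forms KMBA, had 4.22, 3.88 and 4.79 FPKM in KMBA shoots, against 9.47, 5.86 and 16.9 FPKM in WT shoots (log2 fold change -1.04, SE 0.26, adjusted p = 0.0195). WT replicate 3 stood far above the other WT libraries for ARD4, and without it the log2 fold change was -0.68. Its adjusted p was 0.0510 and 0.0724 without KMBA replicates 1 and 2. Aliphatic glucosinolates are defense compounds built from methionine, and none of their 24 tested genes was called, although 10 were lower by adjusted p alone and 21 had a fold change below 0 (median -0.36). FMO GS-OX3, which oxidises their side chain, had 5.39, 4.66 and 5.16 FPKM in KMBA shoots, against 10.0, 8.80 and 10.8 FPKM in WT shoots (log2 fold change -0.84, SE 0.13, adjusted p = 0.00428). Among 17 tested indolic glucosinolate and camalexin genes 1 fell, the regulator MYB51 (log2 fold change -1.12, SE 0.17, adjusted p = 0.00424), which missed a fold of 2 without WT replicate 1 (-0.96).

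The largest falls of any list described were those of iron deficiency genes. Plants that lack iron switch on small mobile peptides and the bHLH transcription factors of the Ib group, of which BHLH100 is one. Of 16 tested genes of this list 4 fell and 1 rose (median -0.56). AT1G47400 had 1.86, 1.25 and 1.11 FPKM in KMBA shoots, against 24.0, 14.6 and 37.3 FPKM in WT shoots (log2 fold change -3.37, SE 0.53, adjusted p = 0.00481). AT1G47395 had 3.02, 5.56 and 2.13 FPKM in KMBA shoots, against 41.8, 27.2 and 77.7 FPKM in WT shoots (log2 fold change -3.39, SE 0.50, adjusted p = 0.00424). Neighbouring and similar, these genes may share reads, and their coding sequences are printed to show how alike they are. They are the plus-strand stretches chr1:17385818-17385970 and chr1:17383117-17383269 of RefSeq's TAIR10.1, of 153 bases each, with capitals at the 17 positions that differ (88.9% identity).
AT1G47400: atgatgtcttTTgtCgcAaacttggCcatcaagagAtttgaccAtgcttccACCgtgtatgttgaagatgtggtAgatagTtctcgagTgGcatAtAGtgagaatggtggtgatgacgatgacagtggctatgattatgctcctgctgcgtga
AT1G47395: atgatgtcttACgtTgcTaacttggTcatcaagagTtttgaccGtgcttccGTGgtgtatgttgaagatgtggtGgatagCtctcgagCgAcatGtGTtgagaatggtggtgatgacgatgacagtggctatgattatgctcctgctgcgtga
AT2G30766, a further uncharacterized gene of the list, had 15.8, 7.80 and 4.69 FPKM in KMBA shoots, against 54.2, 35.0 and 59.2 FPKM in WT shoots (log2 fold change -2.38, SE 0.47, adjusted p = 0.00866), and 41.8% of it is overlapped by opposite-strand genes. BHLH100 had 0.149, 0.0875 and 0.0284 FPKM in KMBA shoots, against 1.62, 3.03 and 4.70 FPKM in WT shoots. For BHLH100 the KMBA libraries were close to the lower end of what was measured, and on the log2(FPKM + 1) scale the change was -1.85 (SE 0.28, adjusted p = 0.00428), a scale that understates folds of such low values. All 4 falls were called in each fit without 1 library.

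The gene of the iron list that rose encodes a store of iron rather than a part of its uptake. FER1, a plastid ferritin named after its values were seen, had 41.2, 31.4 and 72.5 FPKM in KMBA shoots, against 31.9, 14.9 and 20.02 FPKM in WT shoots. WT replicate 1 lay above KMBA replicate 2, so the groups overlapped, and KMBA replicate 3 was the highest (log2 fold change 1.06, SE 0.33, adjusted p = 0.0398). Its adjusted p was 0.0720 without KMBA replicate 1, 0.136 without KMBA replicate 3, 0.0728 without WT replicate 2 and 0.0959 without WT replicate 3. FER3, another ferritin gene, had a log2 fold change of 0.80 (adjusted p = 0.0336), and the ferric reductase gene FRO3 one of -0.65 (adjusted p = 0.0146).

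Nitrate and phosphate genes held a few falls. Of 18 tested nitrate transport and assimilation genes 3 fell and 1 rose (median -0.15). LBD39, a nitrate-induced repressor of nitrate uptake and anthocyanin genes, had 27.7, 23.3 and 22.8 FPKM in KMBA shoots, against 96.4, 53.5 and 102 FPKM in WT shoots (log2 fold change -1.68, SE 0.24, adjusted p = 0.00366). AT1G68670, a myb-like transcription factor gene, had 3.36, 3.00 and 3.57 FPKM in KMBA shoots, against 8.45, 8.06 and 9.27 FPKM in WT shoots (log2 fold change -1.15, SE 0.13, adjusted p = 0.00208), and its libraries were close within each group. BT2, a nitrate-responsive BTB protein, was the other fall (log2 fold change -1.26, SE 0.27, adjusted p = 0.0120). The 3 falls were called in every fit without 1 library. GLU1, the ferredoxin-dependent glutamate synthase of leaves, had 65.2, 72.2 and 62.2 FPKM in KMBA shoots, against 30.9, 47.7 and 17.7 FPKM in WT shoots (log2 fold change 1.13, SE 0.27, adjusted p = 0.0171). Its call was lost without KMBA replicate 2 (adjusted p = 0.0662) or WT replicate 3 (log2 fold change 0.77), and after subtraction of the length and GC trend (0.63). Among 7 tested genes of phosphate starvation SPX1 (-1.11) and the acid phosphatase gene PAP17 (-1.18) fell, and without WT replicate 3 neither reached a fold of 2 (-0.79 and -0.87).

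Falls among photosystem genes were those of the antenna. Of 20 tested antenna genes, which encode the chlorophyll-binding proteins that collect light, 7 fell and none rose (median -0.62, with 5 to 8 falls in the fits without 1 library). LHCB4.2 had 267, 229 and 225 FPKM in KMBA shoots, against 538, 433 and 775 FPKM in WT shoots (log2 fold change -1.23, SE 0.19, adjusted p = 0.00481). LHCB3 had 270, 305 and 307 FPKM in KMBA shoots, against 782, 443 and 895 FPKM in WT shoots (log2 fold change -1.20, SE 0.22, adjusted p = 0.00718). In both genes WT replicate 2 was the lowest WT library and still above all KMBA libraries. The near-identical LHCB2.1 and LHCB2.2 (-1.37 and -1.46) may share reads, and LHCB2.3 (-1.27) is overlapped over 37.6% by an opposite-strand gene. Of 35 tested genes of the photosystem core and carbon fixation none fell and 1 rose (median 0.08). LQY1, a thylakoid protein with a role in photosystem II repair, had 26.2, 31.5 and 41.6 FPKM in KMBA shoots, against 15.5, 15.2 and 13.3 FPKM in WT shoots (log2 fold change 1.102, SE 0.22, adjusted p = 0.00899). KMBA replicate 3 was the highest library, and without it the log2 fold change of LQY1 was 0.93. In the bulk RNA of whole shoots, fewer cells of a type and less RNA per cell cannot be told apart.

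**Figure D3:**
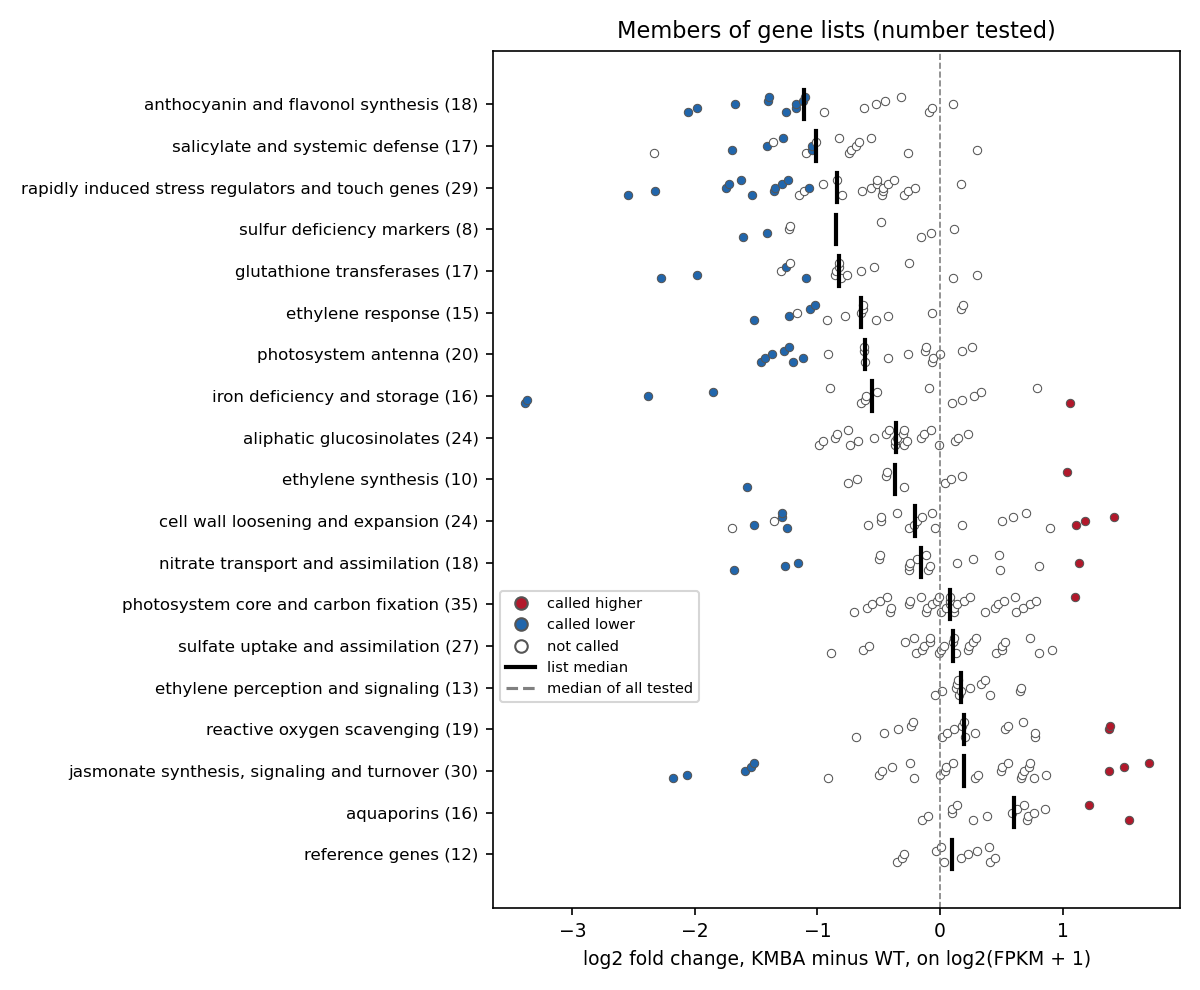
Log2 fold change of KMBA over WT shoots (x axis) for each tested member of 19 gene lists (y axis, number tested in brackets), filled where called, with a bar at the list median and a dashed line at the median of all tested genes. The medians run from -1.11 for anthocyanin and flavonol synthesis to 0.61 for aquaporins, and the reference genes hold no called member.

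Calls among detoxification genes were falls, and those among peroxide-removing genes were rises. Of 17 tested glutathione transferase genes 4 fell and none rose (median -0.83), and 9 fell without WT replicate 2. In each of the other fits without 1 library 3 fell, and after subtraction of the length and GC trend 2 fell. GSTF6 had 24.0, 29.1 and 35.9 FPKM in KMBA shoots, against 167, 60.5 and 303 FPKM in WT shoots. WT libraries of GSTF6 were widely spread and all lay above the KMBA libraries (log2 fold change -2.27, SE 0.44, adjusted p = 0.00856). GSTF12, a carrier of flavonoids into the vacuole, fell too (log2 fold change -1.99, SE 0.40, adjusted p = 0.00945). Of 19 tested genes of reactive oxygen scavenging 2 rose and none fell (median 0.20), and both encode thioredoxin-fold proteins. AT3G11630, annotated as a thioredoxin superfamily protein, had 97.3, 144 and 155 FPKM in KMBA shoots, against 57.4, 52.7 and 38.3 FPKM in WT shoots (log2 fold change 1.39, SE 0.24, adjusted p = 0.00595). 2-Cys Prx B, a chloroplast peroxiredoxin that reduces peroxides, had 48.0, 51.8 and 46.2 FPKM in KMBA shoots, against 21.6, 23.5 and 11.5 FPKM in WT shoots (log2 fold change 1.38, SE 0.24, adjusted p = 0.00620). The groups were well apart in both genes, and both were called in all 6 fits without 1 library. The ascorbate peroxidase genes TAPX (0.77) and SAPX (0.68) had adjusted p of 0.0169 and 0.0197 with folds under 2.

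Aquaporins, the channels that let water cross the plasma membrane and the vacuole membrane, had the highest median of the lists described. Of 16 tested members 2 rose, none fell, 7 more were higher by adjusted p alone, and the median log2 fold change was 0.61. TIP1;1, a channel of the vacuole membrane, had 393, 319 and 426 FPKM in KMBA shoots, against 119, 214 and 83.2 FPKM in WT shoots (log2 fold change 1.55, SE 0.28, adjusted p = 0.00672). TIP2;2, of the same subfamily, had 84.2, 99.7 and 111 FPKM in KMBA shoots, against 34.7, 38.5 and 53.8 FPKM in WT shoots (log2 fold change 1.21, SE 0.22, adjusted p = 0.00672). For TIP1;1 WT replicate 2 came closest to KMBA and for TIP2;2 WT replicate 3 did, and both genes were called in all 6 fits without 1 library. Among the channels of the plasma membrane, PIP1;5 had a log2 fold change of 0.59 (adjusted p = 0.0111).

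Cell wall loosening genes changed in both directions. Xyloglucan endotransglucosylase/hydrolases (XTHs) cut and rejoin the xyloglucan chains that tie cellulose fibrils together. Of 24 tested cell wall genes 3 rose and 4 fell (median -0.20), and all 7 are XTH genes. XTH7 had 17.5, 16.8 and 25.9 FPKM in KMBA shoots, against 7.94, 8.29 and 8.12 FPKM in WT shoots (log2 fold change 1.18, SE 0.15, adjusted p = 0.00250). WT libraries were nearly equal for XTH7, and without KMBA replicate 3, the highest library, its log2 fold change was 0.99. XTH25 had 7.51, 5.84 and 10.6 FPKM in KMBA shoots, against 1.91, 3.02 and 2.02 FPKM in WT shoots (log2 fold change 1.42, SE 0.31, adjusted p = 0.0119). XTH6 rose by 1.11 (adjusted p = 0.0191), a call lost without KMBA replicate 2 (adjusted p = 0.0566), KMBA replicate 3 (0.0658) or WT replicate 1 (0.0644). XTH19 had 2.97, 5.07 and 5.01 FPKM in KMBA shoots, against 13.5, 7.21 and 16.7 FPKM in WT shoots (log2 fold change -1.29, SE 0.25, adjusted p = 0.00848). After subtraction of the trend XTH19 missed a fold of 2 (-0.99), and it was not called with only the 6 libraries compared. XTH31 fell as well (log2 fold change -1.52, SE 0.27, adjusted p = 0.00672). The falls of the list numbered 2 without KMBA replicate 1, 2 or 3 or WT replicate 3, 3 without WT replicate 1 and 6 without WT replicate 2, and the rises 1 without KMBA replicate 3. After subtraction of the trend 2 genes fell and 3 rose.

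**Figure D4:**
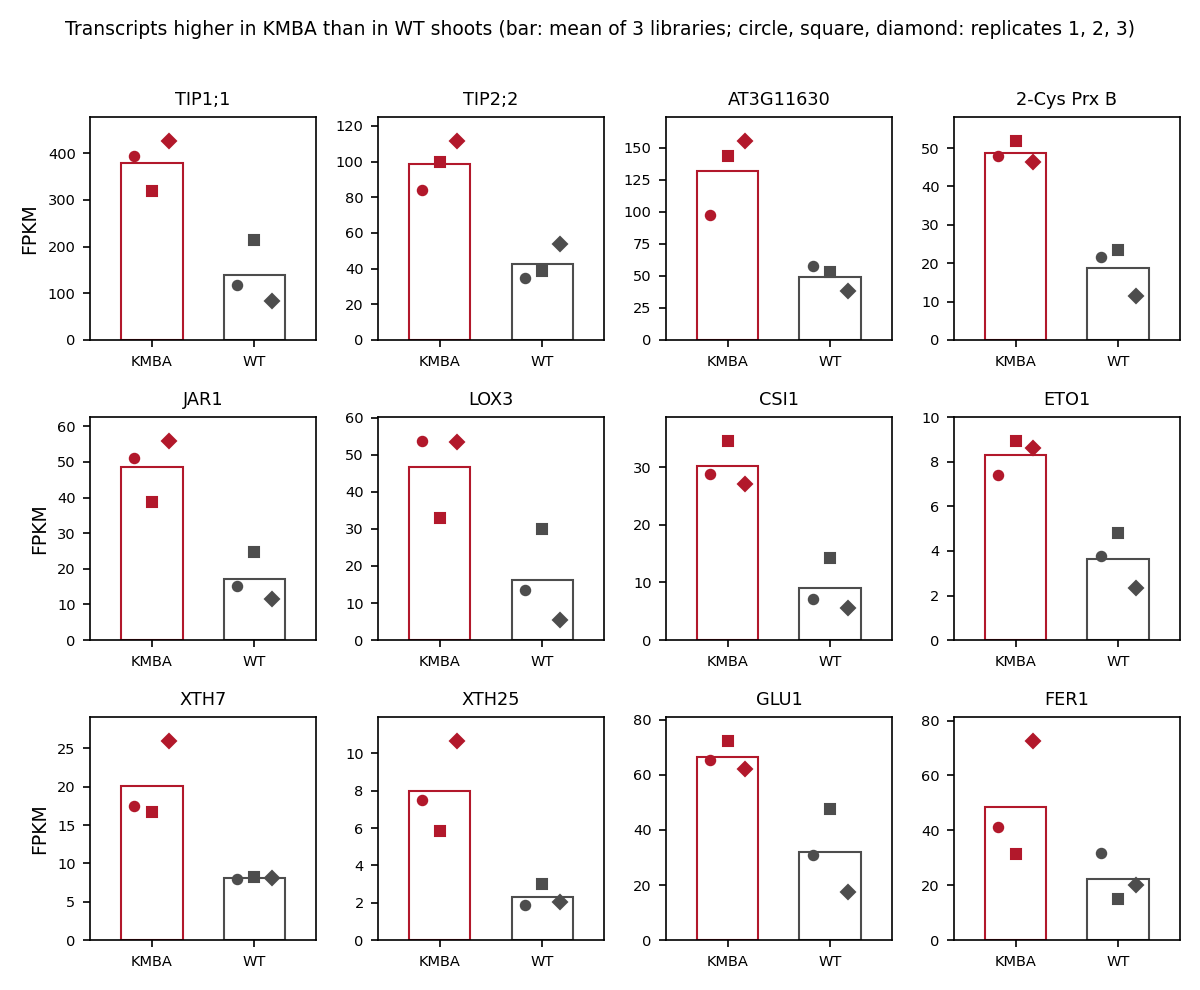
FPKM (y axis, from 0) of 12 transcripts that were higher in KMBA (red) than in WT (grey) shoots, with bars for group means and a symbol for each replicate. KMBA and WT libraries do not overlap except for FER1, where WT replicate 1 (31.9 FPKM) lies above KMBA replicate 2 (31.4 FPKM).

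Immune receptor genes gave few calls. Of 20 tested genes of pattern-triggered immunity, the defense set off by microbial molecules, 2 fell and none rose (median -0.39). SOBIR1, a kinase that works with receptor-like proteins, had 37.6, 41.3 and 35.6 FPKM in KMBA shoots, against 90.9, 81.0 and 97.2 FPKM in WT shoots (log2 fold change -1.21, SE 0.14, adjusted p = 0.00208). The libraries agreed closely within both groups, though 31.6% of SOBIR1 is overlapped by opposite-strand genes. PUB23, a ubiquitin ligase that dampens this immunity, fell by 1.17 on the log2 scale (SE 0.18, adjusted p = 0.00428), and 57.9% of it is overlapped by an opposite-strand gene. FLS2, the flagellin receptor, had 8.40, 10.4 and 8.11 FPKM in KMBA shoots and 4.68, 6.04 and 4.33 FPKM in WT shoots, and its log2 fold change of 0.73 (adjusted p = 0.00672) did not reach a fold of 2.

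Some of the highest folds among the rises belonged to long transcripts. AT5G40450, annotated as an A-kinase anchor-like protein with a transcript of 9194 nt, had 79.9, 109 and 74.5 FPKM in KMBA shoots, against 7.40, 16.9 and 6.99 FPKM in WT shoots. KMBA replicate 2 and WT replicate 2 were each the highest of their group, and the groups were far apart (log2 fold change 3.04, SE 0.32, adjusted p = 0.00208). AT2G32240, annotated as an early endosome antigen, had 37.9, 39.1 and 40.1 FPKM in KMBA shoots, against 9.005, 15.2 and 6.63 FPKM in WT shoots (log2 fold change 1.90, SE 0.24, adjusted p = 0.00208). CSI1, which links cellulose synthase complexes to microtubules and has a transcript of 7205 nt, had 28.9, 34.5 and 27.0 FPKM in KMBA shoots, against 7.18, 14.3 and 5.60 FPKM in WT shoots (log2 fold change 1.72, SE 0.26, adjusted p = 0.00426). After subtraction of the length and GC trend the log2 fold changes were 2.42 for AT5G40450, 1.49 for AT2G32240 and 1.04 for CSI1, and each was still called. CAX7, annotated as a calcium exchanger, had 5.47, 5.18 and 8.20 FPKM in KMBA shoots, against 1.35, 1.42 and 0.414 FPKM in WT shoots (log2 fold change 1.84, SE 0.26, adjusted p = 0.00360). AT5G46730, the glycine-rich gene with 89.7, 106 and 101 FPKM in KMBA shoots, against 23.3, 50.2 and 7.14 FPKM in WT shoots, had a log2 fold change of 2.201 (SE 0.52, adjusted p = 0.0169), and its adjusted p was 0.0616 and 0.0526 without KMBA replicates 2 and 3.

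AT1G66100, annotated as a thionin, a small defense peptide, had 15.7, 17.9 and 30.9 FPKM in KMBA shoots, against 4.35, 9.58 and 2.49 FPKM in WT shoots (log2 fold change 1.89, SE 0.47, adjusted p = 0.0200). Its adjusted p was 0.0559 to 0.0688 without KMBA replicate 2, KMBA replicate 3, WT replicate 1 or WT replicate 3. AT2G38240, annotated as a 2-oxoglutarate-dependent oxygenase, had 6.85, 10.6 and 14.6 FPKM in KMBA shoots, against 1.41, 3.92 and 1.64 FPKM in WT shoots (log2 fold change 1.84, SE 0.43, adjusted p = 0.0159). Its adjusted p was 0.0538 to 0.0586 without KMBA replicate 2, KMBA replicate 3 or WT replicate 1. In both genes KMBA replicate 3 was the highest library and WT replicate 2 the highest of the WT libraries.

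Rises of very short transcripts were large and are uncertain. AT5G14560, with a transcript of 123 nt, had 36.1, 64.5 and 59.7 FPKM in KMBA shoots and was listed at 0 in all 3 WT shoots. Its log2 fold change was 5.72 (SE 1.49, limma adjusted p = 0.0231). The adjusted p of AT5G14560 was 0.0510 to 0.0778 without KMBA replicate 1, 2 or 3 or WT replicate 1 or 3. SA187 shoots averaged 20.6 ± 21.5 FPKM and ACC shoots 38.2 ± 35.9 FPKM for this gene (SD). AT3G01319, of 141 nt, had 19.8, 58.1 and 41.3 FPKM in KMBA shoots and was likewise listed at 0 in all 3 WT shoots. AT5G04238, of 195 nt, had 21.1, 29.9 and 41.6 FPKM in KMBA shoots, against 0, 7.79 and 0 FPKM in WT shoots. For genes this much shorter than a sequenced fragment FPKM is poorly defined, and all 3 lie within genes on the opposite strand over most of their length. Genes under 300 nt were 5 of the 103 rises and 4 of the 382 falls, beside 44 of all tested genes.

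No single gene was called between KMBA and SA187 shoots. With the same rule 0 of 15724 genes (0%) passed limma's test, the smallest adjusted p was 0.331, and 741 genes had an unadjusted p under 0.05. A fold over 2 was seen in 46 genes. With quality weights on the libraries 58 genes were called, and at most 1 under the other settings. A p above the threshold does not show that the groups act alike. Both comparisons with WT use the same WT libraries, so values of the treatments are given side by side rather than as an overlap.

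Between KMBA and ACC shoots 125 genes (0.795%) were called, 46 higher and 79 lower in KMBA. The count was 77, 61 and 64 without KMBA replicates 1, 2 and 3, and 51 without ACC replicate 1. Of the 485 genes that KMBA shoots changed against WT, 18 also differed between KMBA and ACC. JAR1 averaged 48.5 ± 8.83 FPKM in KMBA, 36.9 ± 4.14 in SA187, 19.0 ± 4.69 in ACC and 17.1 ± 6.81 in WT shoots (SD, n = 3 each). The log2 fold change of JAR1 in KMBA over ACC shoots was 1.32 (limma adjusted p = 0.0193). LOX3 averaged 46.7 ± 11.98 FPKM in KMBA, 50.2 ± 6.16 in SA187, 9.93 ± 3.04 in ACC and 16.3 ± 12.5 in WT shoots, and differed from ACC by 2.13 (adjusted p = 0.0269). AOC1 followed the same order as LOX3 (198 ± 29.0, 230 ± 30.5, 56.9 ± 37.7 and 86.0 ± 54.3 FPKM in KMBA, SA187, ACC and WT shoots), and its log2 fold change in KMBA over ACC was 1.96 (adjusted p = 0.0442). These jasmonate genes were thus higher in KMBA than in ACC shoots, and the means of ACC and WT differed by less than the SD of WT.

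Other genes called in both comparisons had other orders of the 4 groups. JAZ1 averaged 9.33 ± 0.990 FPKM in KMBA, 14.9 ± 1.67 in SA187, 21.3 ± 5.48 in ACC and 29.5 ± 6.50 in WT shoots, with a log2 fold change of -1.09 in KMBA over ACC (adjusted p = 0.0122). HAT1, a homeodomain-leucine zipper gene named after its values were seen, averaged 19.2 ± 2.74 FPKM in KMBA, 35.2 ± 7.25 in SA187, 6.31 ± 2.38 in ACC and 67.1 ± 16.4 in WT shoots. HAT1 was thus higher in KMBA than in ACC shoots (log2 fold change 1.51, adjusted p = 0.0119) and lower than in WT shoots (-1.74, SE 0.26, adjusted p = 0.00424). XTH19 averaged 4.35 ± 1.19 FPKM in KMBA, 3.502 ± 0.516 in SA187, 22.7 ± 2.28 in ACC and 12.5 ± 4.83 in WT shoots, and the difference of KMBA from ACC was -2.17 (adjusted p = 0.00247). By contrast LSU2 averaged 41.3 ± 4.45 FPKM in KMBA, 70.5 ± 11.9 in SA187, 32.4 ± 14.4 in ACC and 130 ± 36.1 in WT shoots, and KMBA did not pass the test against ACC (log2 fold change 0.42, adjusted p = 0.479). TIP1;1 averaged 379 ± 55.0 FPKM in KMBA, 318 ± 19.3 in SA187, 321 ± 72.6 in ACC and 139 ± 67.6 in WT shoots, and its log2 fold change in KMBA over ACC was 0.25 (adjusted p = 0.705).

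**Figure D5:**
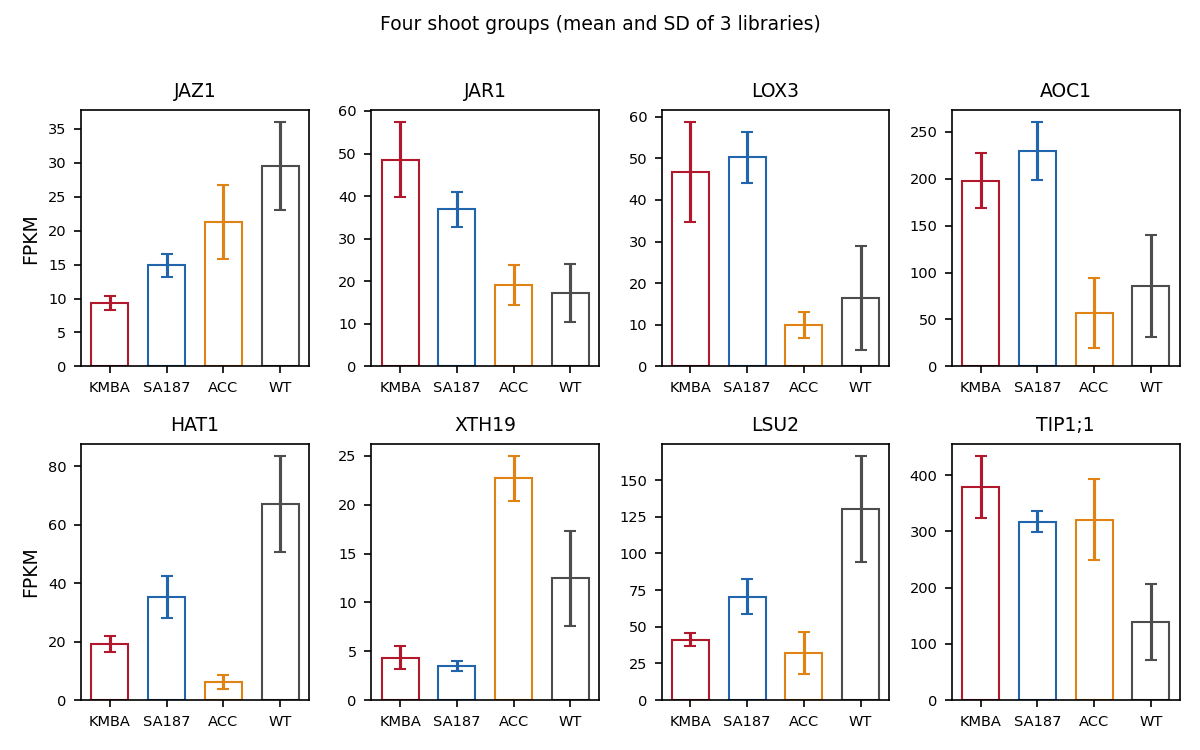
Mean FPKM (bars, y axis from 0) and SD (error bars, n = 3) of 8 transcripts in KMBA, SA187, ACC and WT shoots. JAR1, LOX3 and AOC1 are high in KMBA and SA187 and low in ACC and WT shoots, XTH19 is highest in ACC shoots, and LSU2 and TIP1;1 set WT apart from all 3 treatments.

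Of 21 tested genes that the study names, a choice made on these samples and so no independent evidence, XTH6 and LQY1 rose and LSU2 fell, and the rises numbered 0 without KMBA replicate 3 and 1 without KMBA replicate 2 or WT replicate 1. One gene each fell among 15 tested clock genes (ELF4, log2 fold change -1.23) and 19 auxin response genes (SAUR62, -1.09). Each had the lowest p of its list. Neither reached a fold of 2 once the dependence on length and GC content was taken out (ELF4 -0.84, SAUR62 -0.58). ELF4 was called in all 6 fits without 1 library. SAUR62 lost its call without KMBA replicate 1, WT replicate 1 or WT replicate 3 (adjusted p from 0.0560 to 0.0594). Several processes held no called member. None of the 13 tested heat shock genes, 13 cell division genes, 8 genes of sodium, potassium and vacuolar ion transport, 10 senescence and chlorophyll breakdown genes or 5 hypoxia genes rose or fell, with medians of 0.04, -0.14, 0.07, -0.06 and 0.01. The 12 reference genes used to normalise quantitative PCR held no call either (median 0.10). Of 67 tested chloroplast-encoded genes 5 fell (median -0.18), where 2.43% of all tested genes fell, and of 26 mitochondrion-encoded genes none was called (median -0.16).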

How the data were processed

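PolyA RNA of the 18 libraries was sequenced. Per the submitters' processing notes, FastQC 0.11.5, Trimmomatic 0.36, TopHat (to TAIR10), featureCounts 1.5.1 and Cufflinks 2.2.1 were run. The FPKM values deposited by the authors, 1 for each gene and library, were used as given. FPKM keep no depth, so precision rests on the spread between libraries. Strand use in counting is not stated.

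Names and coordinates came from TAIR10.1, which matched 26703 of 27371 IDs. A single limma 3.58.1 fit in R 4.3.3 held all 12 shoot libraries on log2(FPKM + 1), a scale that understates folds of low genes, for genes reaching 1 FPKM in 3 or more libraries. It used eBayes with an intensity trend and no covariate. All 4 groups shared 1 estimate of the spread for each gene, although WT libraries agreed least (r 0.920 to 0.963). The SE of KMBA over WT may thus understate the spread of WT. In this fit 3222 genes had a limma adjusted p under 0.05. With only the 6 libraries compared, which leave fewer to estimate the spread, 726 had. Tests were 2-sided, and p-values were adjusted by Benjamini-Hochberg. Calls were tested on simulated data. Plots were made in matplotlib 3.10.9 under Python 3.11.15. The alternatives tried are named with their effect in the closing section.

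Members, comparison and the 35 gene lists were chosen with earlier results of these data known. The rule took 12 rises and 12 falls of largest fold among called genes, of which the text describes a part. These genes averaged 5 FPKM or more on their higher side and had no overlapping libraries. To these came up to 12 large calls that held without each library and after trend subtraction, up to 6 members of lowest p in each list, and genes the study names. Genes outside the rule are marked in the text. The subtracted trend was a lowess curve (span 0.3) on log2 transcript length and GC content. Other promoter sequences are not reported here.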

Additional observations from a re-analysis of the deposited data

How the results depend on the processing

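Higher genes numbered 103 and lower genes 382 with all libraries. Higher counts that moved by over 1.5 times were 225 with a pseudocount of 0.1, 66 with array weights, 65 with only the 6 libraries compared and 18 without WT replicates 1 and 3, an alternative chosen after seeing the data. Lower counts that moved were 223 after subtraction of the length and GC trend, 227 with only the 6 libraries and 42 without WT replicates 1 and 3. Leaving out 1 library in turn gave 59 to 222 higher and 209 to 765 lower genes, with the extremes at KMBA replicate 3, WT replicate 2 and WT replicate 3. No filter gave 84 higher and 312 lower, median-ratio scaling 107 and 372, the sequencing pool as a covariate 88 and 377, and isolated zeros as missing 105 and 387. Between KMBA and SA187 the count of 0 became 58 with array weights, 1 with isolated zeros as missing and 0 to 1 without 1 library. Between KMBA and ACC the count of 125 became 218 with array weights and 51 to 120 without 1 library. The alternatives of these 2 comparisons were added after seeing the data, and the causes of these shifts were not tested.

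The same replicate number did not pair the samples: deviations from the group means of KMBA and WT libraries with numbers 1, 2 and 3 correlated at -0.17, -0.0065 and 0.34 across genes. With the replicate number as a block 107 genes were higher and 396 lower.

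Of 85 called genes that the rule named, 85 kept direction and call with a pseudocount of 0.1, median-ratio scaling, no trend in eBayes, the replicate block and isolated zeros as missing. The number was 80 without a filter, 69 with array weights, 84 with the pool as a covariate, 70 with only the 6 libraries, 68 to 84 without 1 library, 72 of 84 after subtraction of the trend and 15 of 84 without WT replicates 1 and 3. No direction reversed. The unknown depth limits what can be said of genes near 0.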

Other observations

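Genes of histidine synthesis, an amino acid made in the chloroplast from phosphoribosyl pyrophosphate, were listed after their values were seen. Of 9 tested genes 3 rose, none fell and 7 had a fold change above 0 (median 0.40, beside 0.0016 for all tested genes). ATP-PRT2, which with ATP-PRT1 encodes the enzyme of the first step, had 18.6, 19.9 and 23.3 FPKM in KMBA shoots, against 10.4, 8.34 and 5.93 FPKM in WT shoots (log2 fold change 1.25, SE 0.25, limma adjusted p = 0.00945). ATP-PRT1 had 10.0, 10.7 and 10.9 FPKM in KMBA shoots, against 4.64, 5.77 and 3.16 FPKM in WT shoots (log2 fold change 1.09, SE 0.21, adjusted p = 0.00833), and 0.90 without WT replicate 3. HISN5B, for a dehydratase of the pathway, rose as well (log2 fold change 1.03, SE 0.19, adjusted p = 0.00762), but missed a fold of 2 without KMBA replicate 3 (0.93), WT replicate 2 (0.98) or WT replicate 3 (0.95). No library of the groups overlapped in these 3 genes, and all 3 were called after subtraction of the length and GC trend.

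Other families grouped by the product text of the reference after the values were seen held falls in 1.56% to 21.4% of their tested genes. Of 54 tested genes for Integrase-type (AP2/ERF) proteins 8 fell (14.8%) and none rose, beside 2.43% of all tested genes that fell. Of 28 genes with the text WRKY DNA-binding 6 fell (21.4%) and none rose. WRKY genes with another product text were not counted, such as WRKY53 (log2 fold change -1.28, fallen) and WRKY22 (-0.65, not called). Of 33 late embryogenesis abundant genes 5 fell (15.2%) and none rose, and of 51 SAUR genes 7 fell (13.7%) and 1 rose. Of 78 genes with thioredoxin or peroxiredoxin in their product text 4 rose and 2 fell, and the rises include AT3G11630 and 2-Cys Prx B, described above. Of 128 leucine-rich repeat genes 2 fell (1.56%) and 2 rose, and of 306 ribosomal protein genes 8 fell (2.61%) and 3 rose. By the same text, of 30 glutathione S-transferase genes 4 fell (13.3%) and none rose, and of 903 uncharacterized genes 64 fell (7.09%) and 13 rose. After subtraction of the length and GC trend 6 AP2/ERF, 3 WRKY DNA-binding and 3 late embryogenesis abundant genes fell. For SAUR genes the balance turned, with 1 fallen and 3 risen, and in the thioredoxin and peroxiredoxin group 6 rose and 1 fell. Of the other groups 2 glutathione S-transferase, 2 leucine-rich repeat, 3 ribosomal protein and 27 uncharacterized genes fell, and 0, 1, 4 and 26 rose. With WT replicate 2 as the lone WT library the falls numbered 3, 0, 0 and 1 in the first 4 of these families.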
